A study of Mus musculus with 6 samples.

Results

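The cyclin-dependent kinase inhibitors are the 7 genes Cdkn1a, Cdkn1b, Cdkn1c, Cdkn2a, Cdkn2b, Cdkn2c and Cdkn2d, taken by symbol from the 54752 genes of the count table. RNA was sequenced from NIH/3T3, an immortal line of mouse embryonic fibroblasts, in 3 groups of 2 libraries after 72 h of culture. One group received PBS as vehicle. The others both received 1 ng/ml TGF-β1, one together with DMSO and one together with 5 μM BI6727, an inhibitor of the mitotic kinase PLK1. The study asked how TGF-β1, which turns fibroblasts into myofibroblasts, and inhibition of PLK1 change the transcriptome. DMSO was not in the PBS group, so TGF-β1 and DMSO cannot be told apart where the DMSO group is set against vehicle. The labels do not say whether replicates were separate cultures, so p-values measure the spread between these libraries only.

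Cyclin-dependent kinases drive the cell cycle when bound to cyclins, and the inhibitors hold them back. The CIP/KIP proteins p21 (Cdkn1a), p27 (Cdkn1b) and p57 (Cdkn1c) bind the cyclin-CDK complexes of G1 and S phase. The INK4 proteins p16 (Cdkn2a), p15 (Cdkn2b), p18 (Cdkn2c) and p19INK4d (Cdkn2d) bind CDK4 and CDK6 and so favour the RB proteins that restrain E2F factors. Cdkn2a also encodes p19ARF, which stabilizes p53 and is read from a separate first exon. p53 activates Cdkn1a, and TGF-β is known in epithelial cells to induce Cdkn1a and Cdkn2b. NIH/3T3 cells are known to lack the Ink4a/Arf locus.

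The promoters of Cdkn1a and Cdkn2c are shown because these were the inhibitors that changed. They are RefSeq windows of 250 bases before to 50 bases after an annotated start, on GRCm38 (mm10), written 5′ to 3′ on the strand of the gene. Cdkn1a has 2 such windows on the plus strand, at chr17:29090729-29091028 and chr17:29093519-29093818. Cdkn2c has 2 on the minus strand, of which the one at chr4:109666707-109667006 is shown. Capitals mark a p53 half-site or the GC box GGGCGG, read on either strand.
Cdkn1a, upstream start: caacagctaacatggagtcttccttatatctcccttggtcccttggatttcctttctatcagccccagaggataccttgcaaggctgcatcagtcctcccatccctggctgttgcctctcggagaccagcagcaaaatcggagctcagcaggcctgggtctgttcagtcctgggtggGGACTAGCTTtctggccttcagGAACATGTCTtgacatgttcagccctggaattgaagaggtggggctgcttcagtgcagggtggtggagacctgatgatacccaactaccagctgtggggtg
Cdkn1a, downstream start: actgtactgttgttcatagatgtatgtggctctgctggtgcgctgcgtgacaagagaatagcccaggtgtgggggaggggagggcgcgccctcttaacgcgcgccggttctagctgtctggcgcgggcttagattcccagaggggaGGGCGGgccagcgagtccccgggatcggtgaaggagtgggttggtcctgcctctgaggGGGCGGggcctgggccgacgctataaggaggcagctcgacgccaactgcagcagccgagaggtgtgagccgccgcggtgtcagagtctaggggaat
Cdkn2c: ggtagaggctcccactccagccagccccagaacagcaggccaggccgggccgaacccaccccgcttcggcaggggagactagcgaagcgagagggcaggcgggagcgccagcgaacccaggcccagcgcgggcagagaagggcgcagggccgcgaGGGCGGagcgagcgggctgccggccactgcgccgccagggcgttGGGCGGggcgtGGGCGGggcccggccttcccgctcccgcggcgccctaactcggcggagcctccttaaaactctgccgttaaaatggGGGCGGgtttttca

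The upstream Cdkn1a window held 2 p53 half-sites, which begin 73 and 51 bases before the start. At least 1 half-site was found in 8.4% of the 32851 promoter windows of all genes, and at least 2 in 0.36%. The downstream Cdkn1a window held no p53 half-site and 2 GC boxes, a number reached by 19.5% of windows. The Cdkn2c window held 4 GC boxes, reached by 5.49% of windows, and the other Cdkn2c window held none. Cdkn2d held 5 GC boxes and 1 p53 half-site, Cdkn1b 1 GC box, Cdkn2b 1, and the windows at the 2 starts of Cdkn2a 1 and 3. The SMAD box CAGAC, of which 49.6% of windows hold at least 1, occurred once in each Cdkn1a window and in 1 of the Cdkn2c windows, and 2 times each in those of Cdkn2b and Cdkn2d. The E2F motif, searched as TTTGGCGC, TTTCCCGC, TTTGCCGC and TTTCGCGC on both strands, occurred in the upstream window of Cdkn2a, in none of the other members' windows and in 2.3% of all windows. These are matches of letters in short windows, and binding was not measured. No window of Cdkn1c was in the table.

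Library totals ranged from 18362378 to 24452153 counts. The DMSO replicates lay further apart than the other pairs, with an SD across genes of their log2 difference of 0.377, against 0.163 for vehicle and 0.147 for BI6727. Fibroblast markers were detected in every group (8 of 8 above 1 normalized CPM, summed level 6161 to 7870). Summed levels were 0.364 to 1.98 normalized CPM for 5 epithelial markers and 0.312 to 3.77 for 4 endothelial markers. Of the immune markers, Cd68, a lysosomal gene of macrophages that other cells also express, had 2.51 to 4.505 normalized CPM, Ptprc at most 9 counts in a library, and Adgre1 and Cd3e 0 counts. Krt5 and Kdr also had 0 counts. The endothelial sum was 0.312 and 0.910 in vehicle, 3.77 and 2.89 with DMSO, and 2.00 and 2.65 with BI6727. The epithelial sum was 0.364 and 0.501 in vehicle, 1.98 and 1.93 with DMSO, mostly from Krt14, and 1.00 and 0.455 with BI6727. The part of either in the results was not tested. In bulk RNA, fewer cells that express a gene and less RNA per cell cannot be told apart.

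Of the 7 inhibitors, Cdkn1a, Cdkn1b, Cdkn2c and Cdkn2d passed the filter of at least 10 CPM, which are counts scaled to the library total, in more than 3 libraries. Cdkn1c, Cdkn2a and Cdkn2b did not, and they did not pass the milder filterByExpr rule of edgeR either, so they were not tested. Cdkn2a (chromosome 4, 89274471 to 89294653, minus strand) had 0 counts in each of the 6 libraries. Cdkn2b (chromosome 4, 89306299 to 89311039, minus strand), the INK4 gene that TGF-β is best known to induce, also had 0 counts in each library, with TGF-β1 and without. A count of 0 allows up to 3 counts, or 0.123 to 0.163 CPM in one library and 0.0236 CPM over the 6 libraries pooled. The 4 exons on which Cdkn2a was counted include the separate first exons of p19ARF (89294334 to 89294653) and p16 (89281986 to 89282192), so neither of these exons had counted reads. No exon of either gene overlaps another gene, and 0% of their 50-base windows occur in transcripts of other genes. Cdkn1c (chromosome 7, 143458339 to 143461050), an imprinted gene, had 2 counts in BI6727 replicate 1 and 0 in the other 5 libraries, which is under the floor of 3. Other genes overlap 30.7% of its exonic length, through the antisense gene Gm44732, so its count is uncertain.

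**Figure D1:**
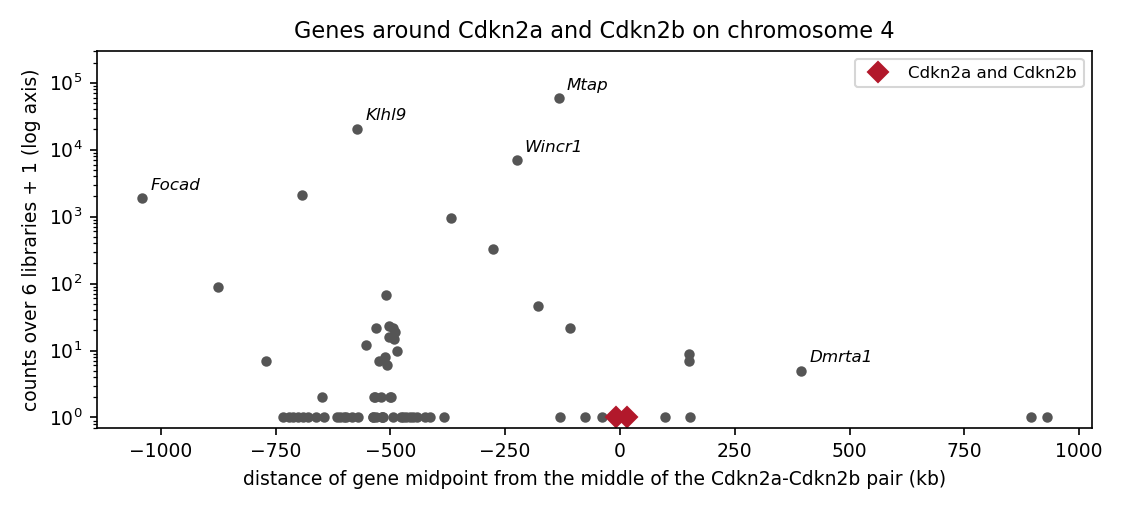
Counts summed over the 6 libraries plus 1 (log axis) for the 71 genes within 1 Mb of Cdkn2a and Cdkn2b, by the distance of the gene's midpoint from the middle of the pair in kb. Cdkn2a and Cdkn2b (diamonds) lie at 0 counts, between Mtap with 58989 counts and Dmrta1 with 4.

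Counts are given here for the annotated genes on either side of Cdkn2a and Cdkn2b. Reads outside annotated exons were not counted, so the extent of any stretch without reads is not known. Of 71 annotated genes within 1 Mb, 39 had 0 counts in every library and 24 had at least 3 counts in some library. Among all 54752 genes, 24904 had a count in any library, so 0 counts are common and not particular to this region. The 5 consecutive genes Tgif2-ps1, Gm12606, Cdkn2a, Cdkn2b and Gm12609, over 183.0 kb, had 0 counts. Mtap, the gene of methylthioadenosine phosphorylase, ends 93.4 kb to one side and had 7242 to 11859 counts in each library. Wincr1, a long non-coding RNA gene 189.9 kb away, had 678 and 922 counts with vehicle, 1013 and 1790 with DMSO, and 1248 and 1339 with BI6727. Klhl9, which encodes an adaptor of a CUL3 ubiquitin ligase, had 2808 to 4131 counts, Mrpl48-ps 256 to 418 and Focad 168 to 452. AL805899.1 had 111 to 198 counts, AL805899.2 37 to 68, Hacd4 2 to 32 and Gm12602 0 to 16. On the other side, Gm12610 had at most 5 counts, Gm12608 at most 4, and Dmrta1, a transcription factor gene 368.4 kb away, at most 4. The other genes with at least 3 counts in a library were Ifnb1, Ifnz and Gm26490, with at most 4, 12 and 9 counts, and Gm13274, Gm13283, Gm26525, Gm13276, Gm13277, Gm26867, Gm13285, Gm13287 and Gm13288, each with at most 10. The DNA of the locus was not measured in these libraries.

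The 4 tested inhibitors stood in the same order of mean level per length in all 3 groups. Levels between genes are given as normalized CPM per kilobase of exonic length. In vehicle, Cdkn1a had 101 ± 7.09 and Cdkn2c 94.4 ± 4.93 (SD, n = 2), and the libraries of these genes overlapped. Cdkn2d had 27.5 ± 0.753 and Cdkn1b 25.8 ± 2.598 (SD, n = 2), which also overlapped. With TGF-β1 and DMSO, Cdkn1a had 182 ± 20.0, Cdkn2c 46.6 ± 3.30, Cdkn2d 22.4 ± 3.46 and Cdkn1b 20.9 ± 1.30 (SD, n = 2). Only the libraries of Cdkn2d and Cdkn1b overlapped there. With BI6727 the values were 182 ± 9.42, 43.1 ± 0.247, 20.3 ± 0.143 and 19.7 ± 0.113 (SD, n = 2) in the same order, and the libraries of no neighbouring pair overlapped. Averaged over the 6 libraries, Cdkn1a lay at percentile 95.4 of the 9518 genes tested, Cdkn2c at 87.9, Cdkn2d at 69.8 and Cdkn1b at 68.3.

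**Figure D2:**
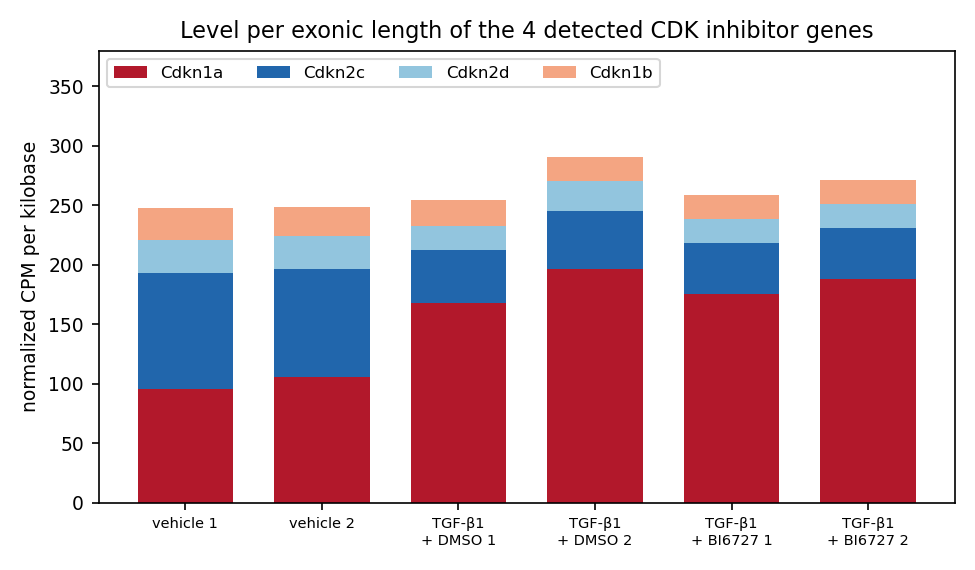
Stacked levels of Cdkn1a, Cdkn2c, Cdkn2d and Cdkn1b in normalized CPM per kilobase, one bar per library. The bars are 248 to 290 high, while the Cdkn1a part grows from 95.6 and 106 in vehicle to 168 and 196 with DMSO and 175 and 188 with BI6727.

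The makeup of the summed level of these 4 genes differed between vehicle and the treated groups. The sum was 248.2 and 248.6 normalized CPM per kilobase in the vehicle libraries, 254 and 290 with DMSO, and 259 and 271 with BI6727. Cdkn1a made up 38.5% and 42.5% of it in vehicle, 66.1% and 67.7% with DMSO, and 67.7% and 69.5% with BI6727. Cdkn2c made up 39.5% and 36.6% in vehicle, 17.4% and 16.9% with DMSO, and 16.7% and 15.8% with BI6727. Within a library, the ratio of Cdkn1a to Cdkn2c per kilobase was 0.977 and 1.16 in vehicle, 3.79 and 4.01 with DMSO, and 4.05 and 4.39 with BI6727. The ratio of Cdkn1b to Cdkn2d stayed between 0.803 and 1.09 in the 6 libraries. These ratios do not depend on the scaling of a library, and they were not tested.

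**Figure D3:**
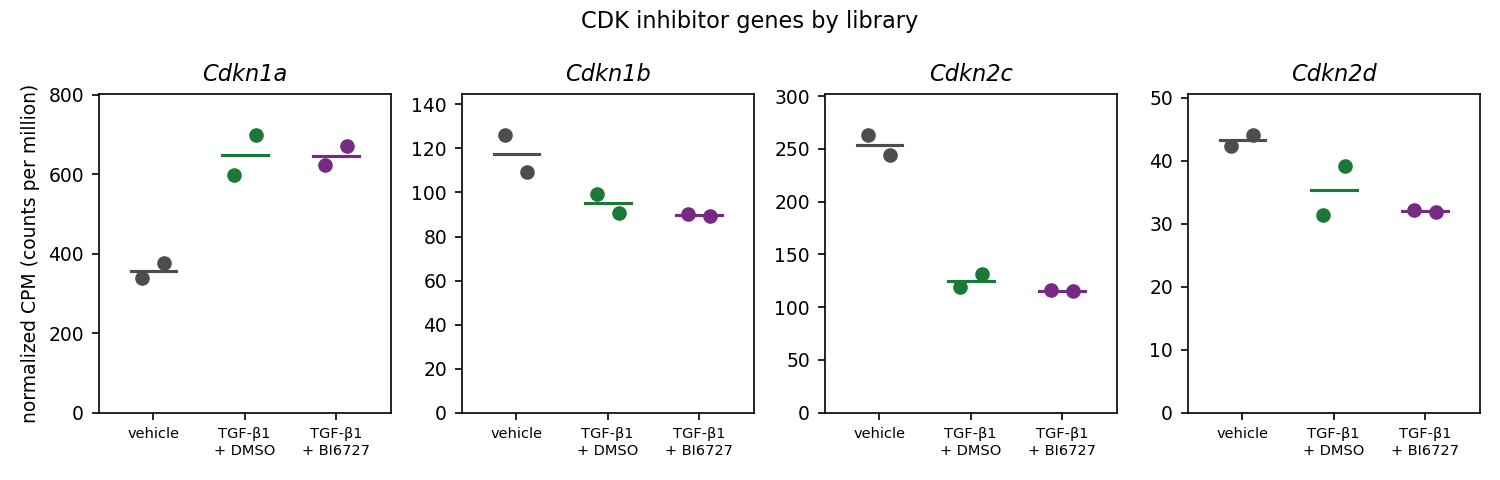
Normalized CPM of Cdkn1a, Cdkn1b, Cdkn2c and Cdkn2d in each of the 6 libraries (points), with the group mean as a line and each axis starting at 0. Cdkn1a is higher and Cdkn2c lower in the 4 treated libraries than in both vehicle libraries.

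Cdkn1a, the gene of p21, rose with TGF-β1 and DMSO. It lies on chromosome 17 (29090976 to 29100727, plus strand), in 4 merged exons. Its normalized CPM were 340 and 375 in the vehicle libraries, 597 and 698 with DMSO, and 622 and 670 with BI6727. The treated libraries all lay above both vehicle libraries, and the DMSO and BI6727 libraries overlapped. With 2 libraries a group, separation of this kind is no test, and its share over all genes was not counted for any comparison. Against vehicle it was 1.81-fold higher with TGF-β1 and DMSO, a log2 fold change of 0.86 (SE 0.12). Its p-value in the quasi-likelihood test of edgeR, adjusted over all 9518 genes tested, was 0.00294. The fold change was under the 2-fold that a call requires, and 2.56% of all genes tested were called higher. Among all genes tested, 4.92% rose and 4.91% fell at the adjusted p threshold of 0.01. The adjusted p-value no longer passed when a vehicle library was left out, at 0.0700 without replicate 1 and 0.0395 without replicate 2. It was also lost without BI6727 replicate 1 (0.0143) or replicate 2 (0.0148), and over the alternatives it ranged from 4.76e-09 to 0.0700. The log2 fold change itself ranged from 0.75 to 0.96. The antisense gene AC167363.2, with 10 to 20 counts in a library, overlaps 7.68% of the exonic length of Cdkn1a, and 8.49% of its 50-base windows occur in transcripts of other genes.

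Cdkn2c, the gene of the INK4 protein p18, fell in the same comparison. It lies on chromosome 4 (109660876 to 109667189, minus strand), overlaps no other annotated gene, and has 0% of its 50-base windows in transcripts of other genes. Its normalized CPM were 263 and 244 in the vehicle libraries, 119 and 132 with DMSO, and 116 and 115 with BI6727. The groups did not overlap between vehicle and either treatment. With TGF-β1 and DMSO it was 2.02-fold lower than in vehicle, a log2 fold change of -1.02 (SE 0.098, edgeR adjusted p = 0.000579). It was the only one of the 4 tested inhibitors that was also called, where 2.53% of all genes tested were called lower. Without vehicle replicate 1 the adjusted p-value was 0.0185 and without replicate 2 it was 0.0120, and over the alternatives it ranged from 9.96e-14 to 0.0185. The log2 fold change ranged from -1.08 to -0.95.

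Cdkn1b, the gene of p27, and Cdkn2d, the gene of the fourth INK4 protein, had smaller differences that did not pass. Cdkn1b (chromosome 6, 134920401 to 134925513) had 126 and 109 normalized CPM in the vehicle libraries, 99.2 and 90.9 with DMSO, and 90.2 and 89.5 with BI6727. Each treated library lay below both vehicle libraries. Its log2 fold change with TGF-β1 and DMSO came to -0.31 (SE 0.11, edgeR adjusted p = 0.0778), with a 95% interval from -0.56 to -0.057. Cdkn2d (chromosome 9, 21288410 to 21291407) had 42.4 and 44.0 normalized CPM in vehicle, 31.4 and 39.1 with DMSO, and 32.2 and 31.8 with BI6727. Its difference on the log2 scale came to -0.29 (SE 0.14, edgeR adjusted p = 0.162), with an interval from -0.61 to 0.028. Whether they passed turned on a different DMSO library for each. Without DMSO replicate 1, the log2 fold change of Cdkn1b was -0.38, and without DMSO replicate 2, that of Cdkn2d was -0.45. Far more of all genes passed in those fits than in the main fit, so passing there says little about these inhibitors. Over the alternatives the adjusted p-values ranged from 0.00172 to 0.399 for Cdkn1b and from 0.00610 to 0.447 for Cdkn2d.

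**Figure D4:**
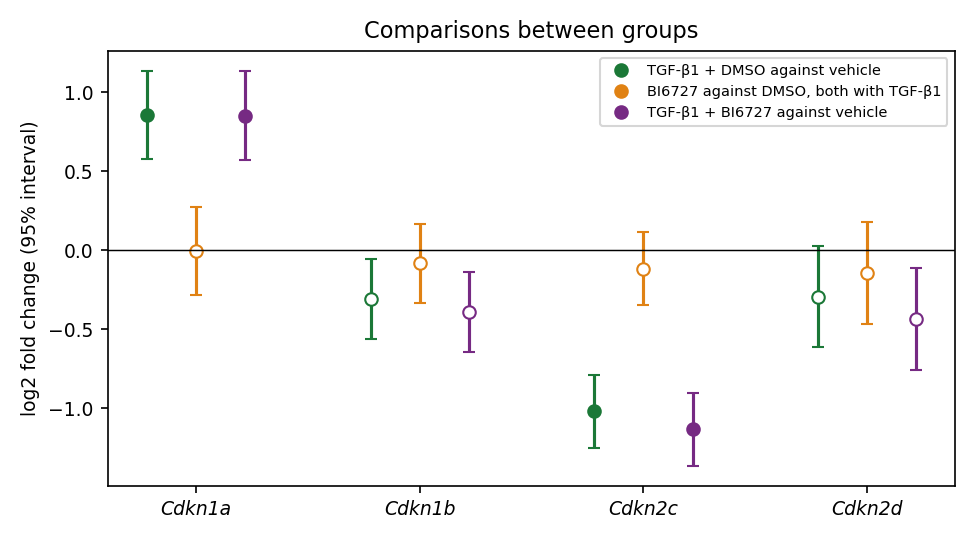
Log2 fold changes of the 4 tested inhibitors in the 3 comparisons, with 95% intervals from edgeR's quasi-likelihood test. Filled points passed at an adjusted p below 0.01 (Cdkn1a at 0.86 and 0.85, Cdkn2c at -1.02 and -1.13), and open points did not.

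Whether BI6727 changed the inhibitors under TGF-β1 was asked by comparing the BI6727 and DMSO libraries. None of the 4 tested inhibitors passed in edgeR's quasi-likelihood test (0 genes), 0 had an unadjusted p below 0.05, and DESeq2 passed 0. Among all 9518 genes the share that passed was 0% in either direction, so the count says nothing particular to the inhibitors. That share rested on the DMSO replicates: 875 genes were higher and 792 lower without DMSO replicate 1, and 68 and 163 without replicate 2, with 0 inhibitors among them. The log2 fold change of Cdkn1a was -0.0041, with a 95% interval from -0.28 to 0.28, or 0.822-fold to 1.21-fold. For Cdkn1b it was -0.081 (interval -0.33 to 0.17), for Cdkn2c -0.11 (-0.34 to 0.11) and for Cdkn2d -0.14 (-0.46 to 0.18). The BI6727 libraries of Cdkn2c and of Cdkn1b all lay below the DMSO libraries, and both intervals held 0. The share of all genes that separated like this was not counted, so the order is a description only. A change of 2-fold in either direction lay outside each of the 4 intervals. The adjusted p-values were 0.996, 0.897, 0.849 and 0.866. The estimate for Cdkn1a changed sign without DMSO replicate 2 (0.10) and without BI6727 replicate 1 (0.048), and that for Cdkn2d without DMSO replicate 2 (0.012).

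TGF-β1 with BI6727 was also compared with vehicle, in libraries that share the vehicle group with the comparison above. Cdkn1a was 1.81-fold higher (log2 fold change 0.85, SE 0.12, edgeR adjusted p = 0.00277), where 4.94% of all genes rose and 2.34% were called higher. Cdkn2c was 2.19-fold lower (-1.13, SE 0.098, edgeR adjusted p = 0.000346), where 5.99% of genes fell and 2.96% were called lower. Cdkn1b had a log2 fold change of -0.39 (SE 0.11, edgeR adjusted p = 0.0370) and Cdkn2d of -0.43 (SE 0.14, adjusted p = 0.0574), so neither passed. Leaving out 1 library moved these calls. Cdkn1a had adjusted p-values of 0.0619 and 0.0373 without vehicle replicate 1 and 2, and 0.0296 and 0.0441 without BI6727 replicate 1 and 2. Cdkn2c had 0.0120 without vehicle replicate 1, and 0.0106 and 0.0110 without BI6727 replicate 1 and 2. Without DMSO replicate 1 or 2, Cdkn1b had 0.000192 and 0.000237 and Cdkn2d 0.000650 and 0.000861. In the fits without a DMSO library, far more of all genes passed than in the main fit. Over the alternatives the log2 fold changes ranged from 0.78 to 0.93 for Cdkn1a, -1.19 to -1.08 for Cdkn2c, -0.49 to -0.29 for Cdkn1b and -0.50 to -0.41 for Cdkn2d. The adjusted p-values ranged from 1.58e-09 to 0.0619 for Cdkn1a, 2.79e-17 to 0.0120 for Cdkn2c, 0.000192 to 0.263 for Cdkn1b and 0.000650 to 0.259 for Cdkn2d.

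The kinases and cyclins that the inhibitors bind were tested as a list of 10 genes. With TGF-β1 and DMSO 1 gene rose and 0 fell, with a median log2 fold change of -0.16, against -0.0045 over all genes tested. Among all genes tested, 4.92% rose and 4.91% fell, so 1 of 10 genes says little about the list. At an unadjusted p below 0.05 there were 3 higher and 3 lower, and DESeq2 passed 3 higher and 0 lower. The gene that rose was Ccne1 (cyclin E1), from 60.4 and 70.6 normalized CPM in vehicle to 99.2 and 110 (log2 fold change 0.68). Its log2 fold change of 0.44 with BI6727 against vehicle did not pass. With BI6727, Ccnd1 (cyclin D1) rose against vehicle, from 228 and 305 to 485 and 542 normalized CPM (0.95). Ccna2 (cyclin A2), from 211 and 244 to 137 and 133 (-0.76), and Ccnd3 (cyclin D3), from 124 and 125 to 90.2 and 86.2 (-0.49), fell in that comparison. Among all genes tested, 4.94% rose and 5.99% fell there. With DMSO, Ccnd1, Ccna2 and Ccnd3 moved the same way against vehicle (0.57, -0.40 and -0.30) but did not pass. Between BI6727 and DMSO they did not pass either (0.37, -0.35 and -0.20). These 4 cyclins are named after their values were seen. The INK4 targets Cdk4, with log2 fold changes of -0.23 and -0.28 against vehicle, and Cdk6, with -0.60 and -0.71, did not pass with either treatment.

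**Figure D5:**
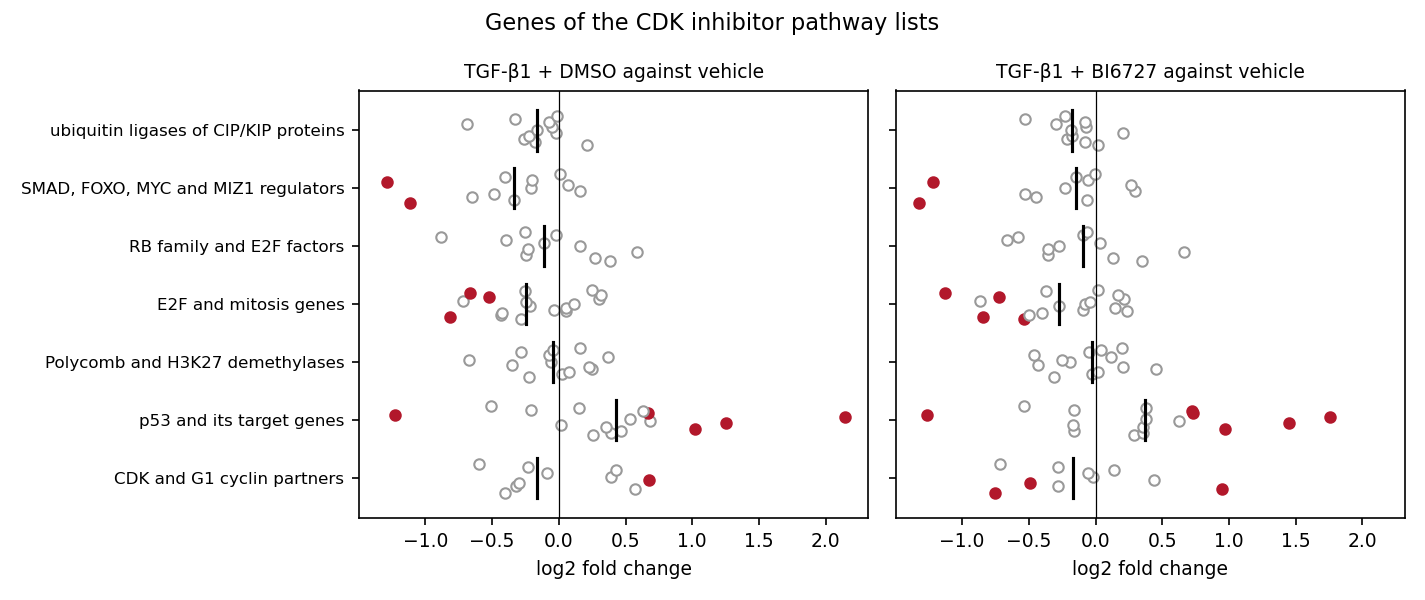
Log2 fold changes against vehicle of the tested genes in 7 lists around the CDK inhibitors, with TGF-β1 and DMSO on the left and TGF-β1 and BI6727 on the right. Filled red points passed at an adjusted p below 0.01, and black lines are list medians, of which that of p53 and its target genes lies furthest from 0 (0.43 and 0.37).

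Downstream of the kinases, the genes that passed in edgeR all fell against vehicle. In lists of 11 and 17 tested genes, 0 rises cannot be told from the share of all genes. None of 11 tested RB family and E2F genes passed in either comparison with vehicle by edgeR (0 genes). At an unadjusted p below 0.05, 2 were higher and 2 lower with DMSO and 2 higher and 3 lower with BI6727, and DESeq2 passed 1 higher and 1 lower in each. Of 17 tested genes under E2F or of mitosis, 3 fell and 0 rose with TGF-β1 and DMSO (median log2 fold change -0.24), where 4.91% of all genes fell and 4.92% rose. With BI6727, 4 fell and 0 rose (-0.28), where 5.99% of all genes fell and 4.94% rose. Tk1 was the only one of these with a role in S phase, and none of the tested Mcm genes, Pcna, Rrm2 and Tyms passed. For the rise, 2 genes with DMSO and 1 with BI6727 had an unadjusted p below 0.05, and DESeq2 passed 0. Tk1, the thymidine kinase of S phase, had 125 and 128 normalized CPM in vehicle, 72.8 and 86.1 with DMSO, and 58.4 and 57.1 with BI6727. Its log2 fold changes against vehicle were -0.67 (edgeR adjusted p = 0.00568) and -1.13 (adjusted p = 0.000575), and it was called in the second. Bub1b, of the spindle checkpoint, and Plk1, the target of BI6727, fell in both comparisons, Bub1b by 0.82 and 0.84 and Plk1 by 0.52 and 0.72 on the log2 scale. Aurkb, of the chromosomal passenger complex, fell by 0.53 with BI6727, and its log2 fold change of -0.28 with DMSO did not pass. Bub1b, Plk1 and Aurkb were named after their values were seen.

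Of the 16 tested genes in the list of p53 and its target genes, 4 rose and 1 fell with TGF-β1 and DMSO. Over all genes tested, 4.92% rose and 4.91% fell. The median log2 fold change of the list was 0.43, against -0.0045 over all genes. Of the 16 genes, 13 lay above 0, as did 49.5% of all genes. With BI6727, 5 rose and 1 fell against vehicle, where 4.94% of all genes rose and 5.99% fell. The median was 0.37, against 0.0029 over all genes, and 11 genes lay above 0, as did 50.4% of all genes. The other 3 lists of regulators had 0 rises in either comparison, as did the RB family and E2F genes and the genes under E2F or of mitosis. With 11, 11 and 13 tested genes in the regulator lists and 11 and 17 in the others, 0 rises cannot be told from the share of all genes. Mdm2, the ubiquitin ligase of p53, had 209 and 226 normalized CPM in vehicle, 498 and 541 with DMSO, and 567 and 624 with BI6727. Its log2 fold changes were 1.26 (edgeR adjusted p = 0.000374) and 1.45 (adjusted p = 0.000181). Pmaip1, the gene of the BH3-only protein NOXA, had 2.86 and 3.78 normalized CPM in vehicle, 13.5 and 16.0 with DMSO, and 10.7 and 11.8 with BI6727 (log2 fold changes 2.15 and 1.76). It met the filter of 10 CPM only through the 4 treated libraries, in which it is high. Its place among the rises is therefore no support for the counts of rises, the counts above 0 or the medians, which include it. Btg2, an antiproliferative gene, had 20.5 and 16.5 normalized CPM in vehicle, 32.8 and 42.4 with DMSO, and 36.0 and 36.6 with BI6727, and its log2 fold changes were 1.02 and 0.97. Sesn1, a sestrin gene of the stress response, fell by 1.23 and 1.27, while its relative Sesn2 rose by 0.67 and 0.73. Tnfrsf10b, a death receptor gene, rose by 0.72 with BI6727, and its log2 fold change of 0.63 with DMSO did not pass. Sesn2 and Tnfrsf10b were named after their values were seen. Trp53, the p53 gene itself, had 218 and 205 normalized CPM in vehicle, 182 and 185 with DMSO, and 184 and 194 with BI6727, with log2 fold changes of -0.21 (adjusted p = 0.141) and -0.16 (adjusted p = 0.229), and did not pass.

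Of the 11 tested genes among SMAD, FOXO, MYC and MIZ1 regulators, 2 fell and 0 rose in each comparison with vehicle. Among all genes tested, 4.91% fell and 4.92% rose with DMSO, and 5.99% fell and 4.94% rose with BI6727. The median log2 fold changes of the list were -0.33 and -0.15. In edgeR, 0 genes were higher at an unadjusted p below 0.05 with DMSO and 2 with BI6727, and DESeq2 passed 0 higher. Smad3, the receptor-activated SMAD of TGF-β signaling, had 70.2 and 72.4 normalized CPM in vehicle, 32.4 and 26.0 with DMSO, and 30.6 in both BI6727 libraries. Its log2 fold changes were -1.29 (edgeR adjusted p = 0.000845) and -1.22 (adjusted p = 0.000950). Cebpb, a bZIP transcription factor that acts with SMADs on Cdkn2b, had 205 and 185 in vehicle, 86.7 and 93.3 with DMSO, and 83.6 and 72.3 with BI6727 (log2 fold changes -1.12 and -1.32). Myc, a repressor of Cdkn1a and Cdkn2b through MIZ1, had log2 fold changes of -0.21 and -0.23 and did not pass.

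The genes that set the stability of CIP/KIP proteins and the silencing of the INK4 locus did not pass. Of 11 tested ubiquitin ligase genes, 0 passed in edgeR with either treatment, while 3 with DMSO and 1 with BI6727 had an unadjusted p below 0.05, all lower, and DESeq2 passed 1 lower in each. Skp2, the F-box protein that targets p27, had 49.1 and 50.4 normalized CPM in vehicle, 39.8 and 39.3 with DMSO, and 33.0 and 35.8 with BI6727. Its log2 fold changes were -0.33 (adjusted p = 0.0684) and -0.53 (edgeR adjusted p = 0.0133). Of 13 tested Polycomb and H3K27 demethylase genes, 0 passed in edgeR and 0 in DESeq2, with medians of -0.047 and -0.028. At an unadjusted p below 0.05 there were 0 higher and 3 lower with DMSO, and 1 higher and 3 lower with BI6727. Between BI6727 and DMSO, 0 of the 89 tested genes of the 7 lists passed in edgeR and 0 in DESeq2, and 2 higher and 7 lower had an unadjusted p below 0.05. Without DMSO replicate 1, 8 were higher and 6 lower there, and without DMSO replicate 2, 0 and 2.

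The counts over the 89 list genes also turned on single libraries. With DMSO against vehicle, 5 rose and 6 fell. Without vehicle replicate 1 or 2 these became 0 and 0 or 1 and 0, without DMSO replicate 1 or 2 they became 22 and 32 or 14 and 17, and without either BI6727 library 2 and 2. With BI6727 against vehicle, 6 rose and 9 fell, which became 0 and 0 without vehicle replicate 1, 1 and 1 without vehicle replicate 2 or either BI6727 library, and 20 and 26 or 21 and 26 without DMSO replicate 1 or 2. Counts over all genes moved likewise, from 48 to 2334 lower and from 79 to 2139 higher with DMSO. Mdm2, Cebpb and Smad3 passed with DMSO in 4 of 6 such fits, Pmaip1 in 5, and Btg2, Sesn1 and Tk1 in 2. With BI6727, Mdm2 and Cebpb passed in 5 and the other 5 of these genes in 2. Their highest adjusted p-values in these fits lay between 0.0109 and 0.0836. Each of the other list genes named as risen or fallen passed in 2 of 6, without a DMSO library, and had adjusted p-values of up to 0.124 in the rest.

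Each tested inhibitor was compared with the other 9517 genes by the Pearson r of log2 CPM over the 6 libraries. These values are descriptions, since the libraries fall into groups and many genes reach a high r. Closest to Cdkn1a were Creg1 (r = 0.9996), Ostm1 (0.997) and Il34 (0.997), and 532 genes had an r above 0.95. Creg1, a lysosomal glycoprotein gene, had 66.7 and 72.1 normalized CPM in vehicle, 102 and 117 with DMSO, and 108 and 112 with BI6727. Closest to Cdkn2c were Fam43a (0.9996), Slc25a12 (0.999) and Cpq (0.998), among 550 genes above 0.95. Slc25a12, a mitochondrial aspartate-glutamate carrier gene, had 69.7 and 64.9 normalized CPM in vehicle, 37.9 and 40.2 with DMSO, and 35.7 and 36.5 with BI6727. For Cdkn1b they were Cdc7 (0.994), a kinase of replication origins, Hif1a (0.990) and Cxcl12 (0.990), among 188 genes. For Cdkn2d they were Tuba1b (0.995), Cdc25c (0.995), the phosphatase that activates CDK1, and Ube2q2 (0.993), among 130 genes.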

How the data were processed

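RNA-seq of NIH/3T3 cells comprised 6 libraries, 2 in each of 3 groups. The authors mapped single-end reads to mm10 with Subjunc, counted them on Gencode M20 genes with featureCounts (Subread 1.6.4 in the submitters' processing notes) and deposited raw counts. The strand setting was not given in the sources used here. Totals ranged from 18362378 to 24452153 counts, and floors from counts cover counting error only. The intervals of fold changes come from the quasi-likelihood test of edgeR, so they also take in the spread between these libraries.

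Samples were grouped by their GEO titles. A gene needed 10 CPM or more in over 3 libraries to be tested, with the edgeR 4.0.16 quasi-likelihood test (R 4.3.3, TMM scaling, all 6 libraries in one fit, no covariate, Benjamini-Hochberg adjustment over all genes tested). A gene passed at an adjusted p below 0.01 and was called when its fold change was also above 2. The standard error is the log2 fold change divided by the square root of F. Normalized CPM use TMM-scaled library sizes of the tested genes. Log2 CPM, used to find genes of similar pattern, had a prior count of 1. Gene symbols matched 54723 of 54752 identifiers. Promoter windows came from RefSeq (GRCm38.p6), and shared 50-base windows from Gencode M21 transcripts.

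The 7 genes and the gene lists were chosen with earlier results of these data known. Named besides the 7 genes are list genes called in any comparison, genes with at least 3 counts in a library near Cdkn2a, and the 3 genes most like each tested inhibitor; other list genes were named for their role after their values were seen. Alternatives were DESeq2 1.42.0 and its size factors, other filters, thresholds and samples, a replicate block, length offsets (lowess span 0.3), each library left out, and, added after seeing the data, a crossed replicate block and the same alternatives for called list genes and list counts. Counts of 9518 genes were simulated with 200 changed 2-fold. Of these 200, 90.5% passed for the DMSO group against vehicle (4 false passes). For BI6727 against DMSO it was 87.0% (6), and for the BI6727 group against vehicle 88.0% (2). These shares do not mirror the wider spread of the real DMSO replicates. They therefore do not say what share of true changes these libraries would show. Replicate numbers did not pair the libraries: deviations of same-numbered libraries from their group means had a correlation across genes of -0.11 (vehicle, DMSO), -0.26 (DMSO, BI6727) and 0.047 (vehicle, BI6727). The other experiments of the study were not analysed here. The summed level of immune markers is not reported here.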

Additional observations from a re-analysis of the deposited data

How the results depend on the processing

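The log2 fold changes of Cdkn1a, Cdkn1b, Cdkn2c and Cdkn2d against vehicle kept their direction under each of 16 alternatives. Those alternatives that change only the threshold keep the main estimates, so a direction could not change in them. Between BI6727 and DMSO, that of Cdkn1a turned from -0.0041 to 0.0052 with filterByExpr, 0.0019 with at least 10 counts in total, 0.0084 with length offsets, 0.10 without DMSO replicate 2 and 0.048 without BI6727 replicate 1, and that of Cdkn2d to 0.012 without DMSO replicate 2. With a fold change above 2 required, 0 inhibitors were higher in either comparison with vehicle, and with only the 2 groups compared 0 were higher with DMSO. With BI6727 against vehicle, 3 inhibitors were lower with only the 2 groups, 2 at an adjusted p below 0.05 and 2 with length offsets. With each library left out, 0 to 1 inhibitors were higher and 0 to 2 lower with DMSO, and 0 to 1 and 0 to 3 with BI6727. The lone library left in an arm was assumed to vary like the other groups. Between BI6727 and DMSO, the values of Cdkn1a then ranged from -0.11 to 0.10 and those of Cdkn2d from -0.29 to 0.012.

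Of the list genes, 5 were higher and 6 lower with DMSO against vehicle. These became 11 and 11 with DESeq2, 2 and 2 with only the 2 groups, 13 and 15 at an adjusted p below 0.05, 3 and 3 with a fold change above 2, and 11 and 13 with length offsets. The replicate block gave 2 and 3, and changed no count of inhibitors. With BI6727, 6 higher and 9 lower became 21 and 26 with only the 2 groups, 11 and 18 at an adjusted p below 0.05, and 2 and 4 with a fold change above 2. There were 15 lower with DESeq2 and 15 with length offsets. The cause was not tested. The crossed replicate block, which swaps the DMSO numbers, changed no count of inhibitors. With each library left out, list genes ranged from 0 to 22 higher and 0 to 32 lower with DMSO against vehicle, 0 to 21 and 0 to 26 with BI6727 against vehicle, and 0 to 8 and 0 to 6 between BI6727 and DMSO. The log2 fold changes of the 7 called list genes kept their direction under these 16 alternatives. In those that change only the threshold it could not change.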
